A study of Mus musculus with 21 samples.

Results

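The nuclear genes of respiratory complexes II to V were followed in mouse CD8 T cell cultures given acute or chronic antigen receptor stimulation. They were chosen by symbol: Sdha, Sdhb, Sdhc, Sdhd, Cyc1 and Cycs, and every symbol beginning with Uqcr, Atp5, Cox4, Cox5, Cox6, Cox7 or Cox8. This took 45 of the 13202 genes in the deposited table, all of which passed the filter on low values. The rule gave 4 genes of complex II, 9 of complex III, the gene of cytochrome c, 14 of complex IV and 15 of complex V. Complex IV here includes Cox7a2l, a gene related to Cox7a2 that was counted by its symbol. Whether it acts as a regular subunit was not tested. The prefix also took Atp5s and Atp5sl, which are named after ATP synthase but are not subunits of it (they are now called Dmac2l and Dmac2). Both are counted among the 45 and set apart from complex V.

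RNA of 21 libraries in 7 groups of 3 was sequenced, all harvested on day 8. Polyclonal CD8 cells of C57BL/6 mice were negatively selected from spleen and inguinal nodes and first activated on anti-CD3 and anti-CD28; the polyclonal acute group was then cultured in IL-2 without anti-CD3, and the polyclonal chronic group in IL-2 on plate-bound anti-CD3 renewed every 48 h. The vehicle acute and vehicle chronic groups, also C57BL/6, followed the same scheme, and the NAC chronic group was on anti-CD3 with 10 mM N-acetylcysteine (a thiol antioxidant and glutathione precursor) added from 48 h. The OT-I groups carried a transgenic T cell receptor that recognises the ovalbumin peptide SIINFEKL; after activation with the peptide, both were cultured with IFN-γ-treated B16-F10 melanoma cells, and the OT-I chronic group received SIINFEKL again at each passage. The OT-I acute group therefore also contained melanoma cells, and N-acetylcysteine was given with chronic stimulation only. The series title names mitochondrial dysfunction in exhausted T cells as the subject.

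The respiratory chain passes electrons through complexes embedded in the inner mitochondrial membrane. Complex II (succinate dehydrogenase) is also an enzyme of the citric acid cycle, complex III hands electrons to the carrier cytochrome c, complex IV passes them to oxygen, and complex V (ATP synthase) uses the proton gradient that complexes I, III and IV build to make ATP. Complex II is made from nuclear genes alone, whereas complexes III, IV and V also contain subunits encoded in mitochondrial DNA, which are not analysed here. In T cells, oxidative phosphorylation supports activation, proliferation and long-term survival.

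Values are RPKM, read numbers divided by gene length and by library size, which allow levels of different genes to be compared per length. Libraries held 5347355 to 25218890 reads. Low genes are detected genes with a mean under 1 RPKM over all libraries. Their signal was most raised, against the other libraries of the same group, in 3 libraries. These libraries were polyclonal acute replicate 2, polyclonal chronic replicate 2 and OT-I acute replicate 3, at 3.68, 2.51 and 2.06 times the level of the others. Their summed RPKM over the 45 genes was also the lowest of each group, at 5467, 5398 and 5721 RPKM, and results are given with and without them. Melanocyte markers, 12 genes in all, summed to 7992 to 8292 RPKM in OT-I acute and 4692 to 4817 in OT-I chronic, and to at most 80.8 elsewhere; Tyr, Tyrp1 and Slc45a2 were at 0 in all vehicle and NAC libraries. In the polyclonal chronic group CD8 T cell markers (7 genes, of which 2 were higher and 4 lower) summed to 1381 to 1571 RPKM against 1828 to 2009 in polyclonal acute. Among them the CD8 chains Cd8a and Cd8b1 were at means of 8.48 and 23.05 RPKM there against 101 and 266.5. Cd2 and Cd5 were at 403.6 and 142.2 against 301.5 and 51.84. B cell markers (7 genes) summed there to 215.6 to 236 RPKM against 3.40 to 15.9, and CD4 T cell markers (4 genes) to 377.5 to 403 against 99.5 to 108.3. All libraries are bulk RNA, in which fewer cells of a type and less RNA per cell cannot be told apart. The labels do not say whether libraries of a group came from separate mice or cultures, so p-values measure the spread between these libraries, which may be technical.

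Promoter sequence is shown for 5 members that the results turn on, 160 bases each from 130 before to 30 from the annotated start, 5′ to 3′ on the gene's strand, from RefSeq on build GRCm38.p6. Uqcr11 (chr10:80406792-80406951, minus strand) had the lowest log2 change of all 45 genes after chronic stimulation in vehicle, and Atp5k (chr5:108434370-108434529, minus strand) moved in opposite directions in the vehicle and OT-I experiments. Atp5b (chr10:128083177-128083336, plus strand) was the most abundant member. Uqcrh (chr4:116075041-116075200, minus strand) and Cox6b2 (chr7:4753065-4753224, minus strand) were higher with N-acetylcysteine while most other members of their complexes were not. Capitals mark the NRF1 core GCATGCGC and the ETS and GABP core CCGGAAG on either strand.
Uqcr11: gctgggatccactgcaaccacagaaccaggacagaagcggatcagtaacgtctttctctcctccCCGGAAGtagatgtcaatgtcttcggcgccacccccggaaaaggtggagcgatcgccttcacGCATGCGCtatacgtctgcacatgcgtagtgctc
Atp5k: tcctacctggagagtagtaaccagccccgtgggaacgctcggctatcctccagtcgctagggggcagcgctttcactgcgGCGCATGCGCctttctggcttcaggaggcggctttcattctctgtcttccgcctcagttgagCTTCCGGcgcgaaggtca
Atp5b: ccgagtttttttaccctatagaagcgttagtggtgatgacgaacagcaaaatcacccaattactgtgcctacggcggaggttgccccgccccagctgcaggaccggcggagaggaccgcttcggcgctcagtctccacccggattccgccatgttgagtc
Uqcrh: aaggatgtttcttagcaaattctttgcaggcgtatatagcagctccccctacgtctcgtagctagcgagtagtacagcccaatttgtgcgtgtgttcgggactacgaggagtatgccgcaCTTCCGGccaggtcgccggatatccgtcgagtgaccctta
Cox6b2: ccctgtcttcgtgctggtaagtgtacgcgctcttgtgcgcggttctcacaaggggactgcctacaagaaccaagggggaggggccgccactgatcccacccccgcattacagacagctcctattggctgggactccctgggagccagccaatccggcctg
NRF1 and GABP are transcription factors known for binding promoters of nuclear respiratory genes. Over windows from 250 bases before to 50 after the start, on both strands, the NRF1 core was in 8 of the 36 members that the RefSeq table holds (22.2%), against 3.05% of all 27025 genes in it. The ETS and GABP core was in 12 of 36 (33.3%) against 9.93%, and the YY1 core AAGATGGCG in 3 of 36 (8.33%) against 1.64%. The 36 include the set-apart Atp5s and Atp5sl. The YY1 core was in Atp5sl and in Atp5j and Atp5j2 of complex V. The NRF1 core was found in 1 of 3 complex II, 2 of 5 complex III, 1 of 11 complex IV and 3 of 14 complex V promoters, and in that of Cycs. Of the 17 promoters with any of these cores, 9 belonged to genes that fell in vehicle chronic cells and 8 to genes without a call; of the 19 without one, 11 fell, 2 rose and 6 had no call. A match describes the letters and is not a measured site.

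Complex V had the most abundant single member and complex IV the next. Atp5b, the catalytic beta subunit of ATP synthase, had a mean of 640.6 RPKM over all libraries, followed in complex V by Atp5e (epsilon subunit) at 344.1 and Atp5a1 (alpha subunit) at 341.1. In complex IV the leading genes were Cox4i1 (427.9 RPKM), Cox8a (391.1) and Cox6a1 (352), in complex III Uqcrh (239.3), Uqcr10 (175) and Uqcrc2 (114.7), and in complex II Sdhb (170.6), Sdhd (91.4) and Sdha (90.8). The lowest listed levels of subunit genes were those of Atp5g2 (2.86 RPKM), Cox7a1 (4.43), Cox6a2 (5.62), Atp5l (8.03) and Cox6b2 (8.12); those of Atp5g2 and Atp5l are uncertain, since 50.6% and 72.2% of their transcripts matched other genes. Cycs, the somatic cytochrome c gene, was listed lower than any of these at 1.203 RPKM, with 23 to 91 reads per library. Vehicle acute was the group with the highest mean for 25 of the 45 genes, OT-I acute for 10, NAC chronic for 6, OT-I chronic for 3 and polyclonal acute for 1.

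Summed over a complex, subunit RNA was lower in vehicle chronic than in vehicle acute cells for each of complexes II to V, with no overlap between libraries. Complex V stood at 3802, 3870 and 3705 RPKM in vehicle acute and at 2942, 2944 and 2856 in vehicle chronic, a change of -23.2% in the mean. The corresponding changes were -16.3% for complex III, -15.8% for complex II and -10.3% for complex IV, and -21.5% for the 36 complex I genes of the table, taken as a comparator. With N-acetylcysteine, complex V was lower again, at 2637, 2663 and 2625 RPKM, a change of -9.33% from vehicle chronic, whereas complex III was 6.21% above it, at 1024, 1020 and 1032 RPKM against 971.3, 980.9 and 943.2. Neither set of libraries overlapped. The complex III excess is on the RPKM scale, on which the library medians were 11.72 to 11.78 in NAC chronic and 10.34 to 10.47 in vehicle chronic. With all libraries brought to a common median, the median log2 change of its 9 genes was -0.20, against -0.03 without this. Of the 9 genes, 1 was then called higher and 3 lower. In the other 2 experiments the sums of acute and chronic libraries overlapped for every complex: complex V was at 2641, 2394 and 2414 RPKM in polyclonal acute and 2689, 2405 and 2828 in polyclonal chronic, and at 2941, 3145 and 2420 in OT-I acute and 3022, 3001 and 3159 in OT-I chronic. Ordered by its mean, complex V ran from vehicle acute (3793 ± 82.8, SD, n = 3) through OT-I chronic (3061 ± 86.1), vehicle chronic (2914 ± 50.5), OT-I acute (2836 ± 374), NAC chronic (2642 ± 19.5) and polyclonal chronic (2641 ± 215) to polyclonal acute (2483 ± 137). Vehicle acute lay apart from the next group, OT-I chronic and vehicle chronic differed by little more than their SDs added, and the other neighbours in this order were within them.

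**Figure D1:**
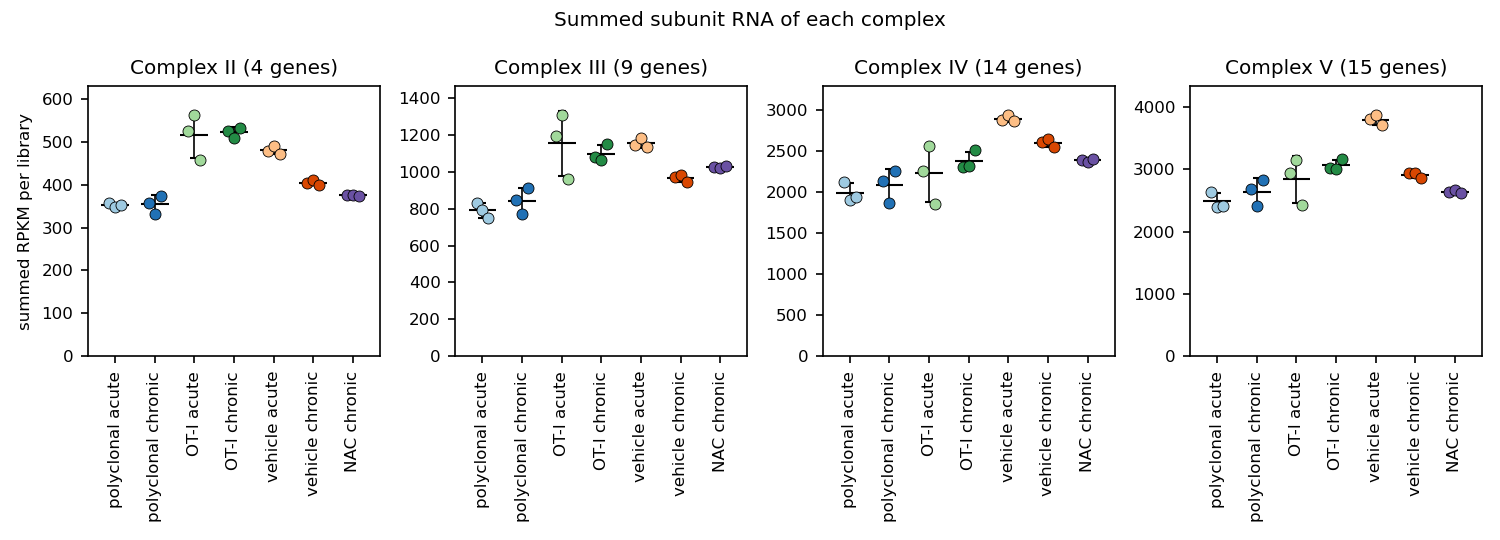
Summed RPKM of the subunit genes of complexes II, III, IV and V (vertical axes, from 0) in each of the 21 libraries by group; points are libraries, the line is the mean and the bar the SD. Vehicle acute libraries lie above vehicle chronic in every panel (complex V at 3793 against 2914 RPKM). Before any rescaling to a common median, NAC chronic lies above vehicle chronic for complex III only.

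Each gene was tested with limma on log2(RPKM + 1), a scale that understates the change of low genes, over the 12630 genes with at least 1 RPKM in 3 or more libraries, and called at a Benjamini-Hochberg adjusted p under 0.05. In vehicle cells, chronic stimulation lowered 25 of the 45 genes and raised 3, against 34.4% of all genes lower and 24.5% higher. The median log2 change of the 45 was -0.27, beside -0.03 over all genes. By complex, 2 of 4 genes of complex II fell (median -0.27), 7 of 9 of complex III (median -0.34), 5 of 14 of complex IV with 3 rising (median -0.16) and 11 of 15 of complex V (median -0.29). None rose in complexes II, III and V. Complex I had 26 of 36 lower and 1 higher (median -0.33). With all libraries brought to a common median the counts of the 45 were 22 lower and 3 higher, and without the 3 libraries of raised low-gene signal, none of which is in this experiment, they were 29 and 4. The 5 proliferation markers, all lower, summed to 717.1 to 749.9 RPKM in vehicle acute and 291 to 298.1 in vehicle chronic; their part in the result was not tested.

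The polyclonal experiment repeats this contrast without vehicle, and its counts differed in direction. Of the 45 genes, 10 rose and 5 fell, against 28.6% of all genes higher and 35.5% lower, and the median log2 change was 0.05 beside -0.08 over all genes. Complex III had 3 of 9 higher and none lower, complex IV 3 higher and 2 lower, complex V 3 higher and 1 lower, and complex II 1 of each; Atp5sl was the remaining fall. Without the 3 libraries of raised low-gene signal, 17 rose and 5 fell. Single libraries set these counts: 4 rose without polyclonal chronic replicate 3, 6 without polyclonal chronic replicate 1, 6 without polyclonal acute replicate 3, and 14 without polyclonal chronic replicate 2. The falls went from 5 to 3 without polyclonal acute replicate 3 or polyclonal chronic replicate 2. Proliferation markers were again all lower, at 278 to 283 RPKM in chronic against 534.6 to 596.8 in acute libraries, and all 7 B cell markers were higher; the part of either in these counts was not tested.

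In OT-I cells 11 of the 45 genes rose and 9 fell, against 22.4% of all genes higher and 36.2% lower, with a median log2 change of 0.02 beside -0.12 over all genes. Complex V had 5 of 15 higher and 2 lower, complex IV 4 of 14 higher and 2 lower, complex III 1 of 9 higher and 3 lower, and complex II 1 of 4 higher; Atp5s and Atp5sl both fell. With libraries brought to a common median the split was 14 higher and 6 lower. Without the 3 libraries of raised low-gene signal it turned to 8 higher and 21 lower, with a median of -0.16, and the medians of complexes IV and V turned from 0.03 and 0.07 to -0.13 and -0.03. Without OT-I acute replicate 3 alone the falls went from 9 to 18. Melanocyte markers fell for 8 of 12 genes and none was called higher, and the sum changed from a mean of 8113 to 4761 RPKM. Pmel went from 2013 to 679.5 and Tyrp1 from 2281 to 1244, while Sox10 went from 130.2 to 150.1, Gpnmb from 712.5 to 735.8 and Mc1r from 45.5 to 48.3. The sum therefore does not give the share of melanoma RNA. RNA of melanoma cells and of T cells cannot be told apart for the 45 genes. B cell markers were higher for 6 of 7 genes, with a sum of 5.20 to 11.9 RPKM in acute and 45.3 to 49.1 in chronic libraries; their part in these counts was not tested.

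**Figure D2:**
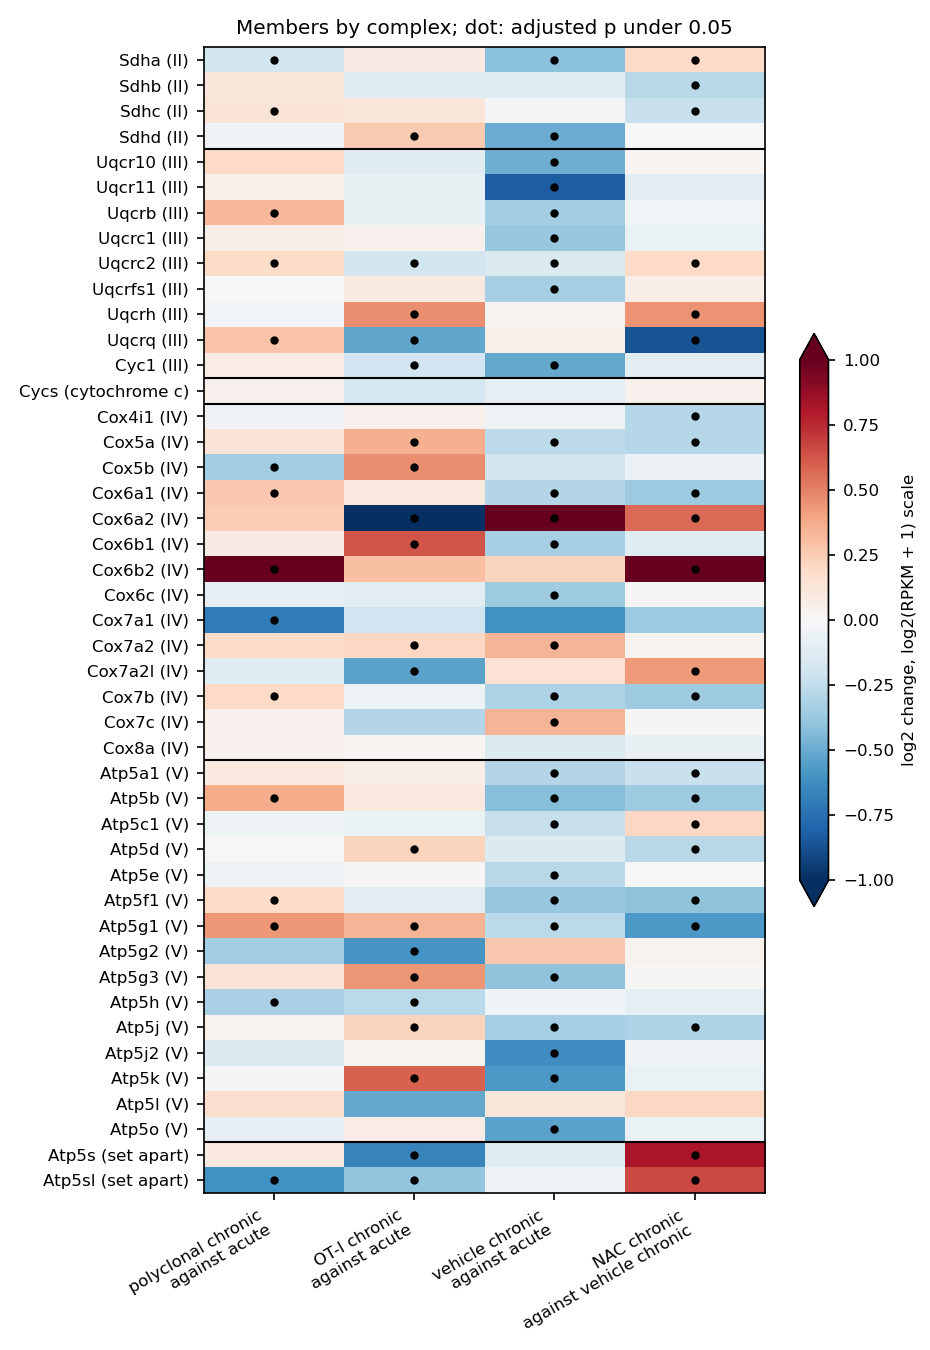
Log2 change of each of the 45 genes (rows, grouped by complex) in 4 comparisons (columns); colour gives the change on the log2(RPKM + 1) scale, with values beyond 1 in either direction drawn in the end colours, and a dot marks an adjusted p under 0.05. Complex III and V genes are mostly blue in the vehicle column, with 7 of 9 and 11 of 15 called lower.

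Complex II was the smallest set and its 4 subunits did not move as one. Sdha, the flavoprotein that oxidises succinate, was at 108, 112 and 109.7 RPKM in vehicle acute and 83.1, 81.2 and 83.03 in vehicle chronic libraries. The groups did not overlap, and the log2 change was -0.41 ± 0.044, adjusted p = 7.22e-08 (± SE here and below). Sdhd, a membrane anchor, was at 113, 121 and 109 and then 77.9, 86.03 and 78.7 RPKM, also without overlap (log2 change -0.50 ± 0.061, adjusted p = 5.82e-07). Sdhb, the iron-sulphur subunit, and Sdhc, the other anchor, had log2 changes of -0.12 and -0.02 and were not called. In polyclonal cells Sdha was lower (log2 change -0.19 ± 0.044, adjusted p = 0.000869) and Sdhc higher (log2 change 0.13 ± 0.055, adjusted p = 0.0449). The call of Sdha was lost by voom (log2 change -0.09, adjusted p = 0.264), and that of Sdhc when only those groups were fitted (0.109) and without polyclonal chronic replicate 3 (0.208). Sdhb and Sdhd, with log2 changes of 0.11 and -0.04, were not called there. In OT-I cells Sdhd alone was called, and it was higher: 86.4, 93.9 and 75.8 RPKM in acute and 104, 101 and 103 in chronic libraries (log2 change 0.27 ± 0.061, adjusted p = 0.00094). The log2 changes of Sdha, Sdhb and Sdhc there were 0.08, -0.12 and 0.12. The lowest Sdhd value of the acute libraries was that of replicate 3, the library of raised low-gene signal.

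Complex III fell in vehicle cells through its catalytic subunits and most of its small ones. Uqcr11, a small subunit whose promoter carries both motifs above, went from 39.2, 41.1 and 41.7 RPKM to 23.2, 24.2 and 20.4 (log2 change -0.82 ± 0.17, adjusted p = 0.000392). Its level is uncertain, since 38.4% of its transcript matched a pseudogene. Cyc1, the cytochrome that passes electrons to cytochrome c, went from 109.9, 118 and 102 to 77.5, 78.9 and 73.8 RPKM (log2 change -0.51 ± 0.081, adjusted p = 1.57e-05). For both genes every chronic library lay below every acute one. Uqcr10, another small subunit, had a log2 change of -0.49 ± 0.1, adjusted p = 0.000316, and the core proteins Uqcrc1 and Uqcrc2 had log2 changes of -0.38 ± 0.058, adjusted p = 1.03e-05 and -0.14 ± 0.055, adjusted p = 0.0327. The Rieske iron-sulphur protein Uqcrfs1 and the small subunit Uqcrb fell as well, by -0.33 and -0.34 on the log2 scale. The call of Uqcrc2 was lost with libraries brought to a common median (adjusted p = 0.148) and by voom (0.412). The hinge protein Uqcrh, at a log2 change of 0.03, and Uqcrq, at 0.05, were not called.

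In the polyclonal experiment the called complex III genes were all higher. Uqcrb was at 22.4, 28.3 and 25.5 RPKM in acute and 33.02, 29.6 and 33.99 in chronic libraries (log2 change 0.34 ± 0.098, adjusted p = 0.00521), groups that did not overlap. Uqcrq (log2 change 0.28 ± 0.11, adjusted p = 0.024) and Uqcrc2 (log2 change 0.18 ± 0.055, adjusted p = 0.00619) were the others, calls lost without polyclonal chronic replicate 3 (adjusted p = 0.14 and 0.0509). Cyc1 was not called there, with a log2 change of 0.08. In OT-I cells Uqcrq, a subunit that contacts cytochrome b, was at 184, 207 and 137 RPKM in acute and 119, 114 and 129 in chronic libraries (log2 change -0.52 ± 0.11, adjusted p = 0.000282), without overlap. Uqcrh moved the other way there, from 145, 166 and 120.3 to 192, 191 and 211 RPKM (log2 change 0.47 ± 0.085, adjusted p = 0.000101). Uqcrc2 and Cyc1 fell too (log2 change -0.19 ± 0.055, adjusted p = 0.00648 and log2 change -0.19 ± 0.081, adjusted p = 0.0449), but neither passed with libraries brought to a common median, at adjusted p = 0.267 and 0.383, or by voom, at 0.332 and 0.41.

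Cytochrome c itself was not called in any comparison. Cycs was at 1.19, 1.36 and 1.35 RPKM in vehicle acute, 1.19, 1.1 and 1.16 in vehicle chronic and 1.17, 1.16 and 1.32 in NAC chronic libraries. Its log2 changes were -0.09 in vehicle, 0.04 in polyclonal and -0.18 in OT-I cells, and 0.04 with N-acetylcysteine. These levels rest on few reads, and 33.7% of its annotated transcript matched transcripts of 14 other genes at 97% identity or more over at least 100 bases, so reads of Cycs could have been split or left out in the counting.

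**Figure D3:**
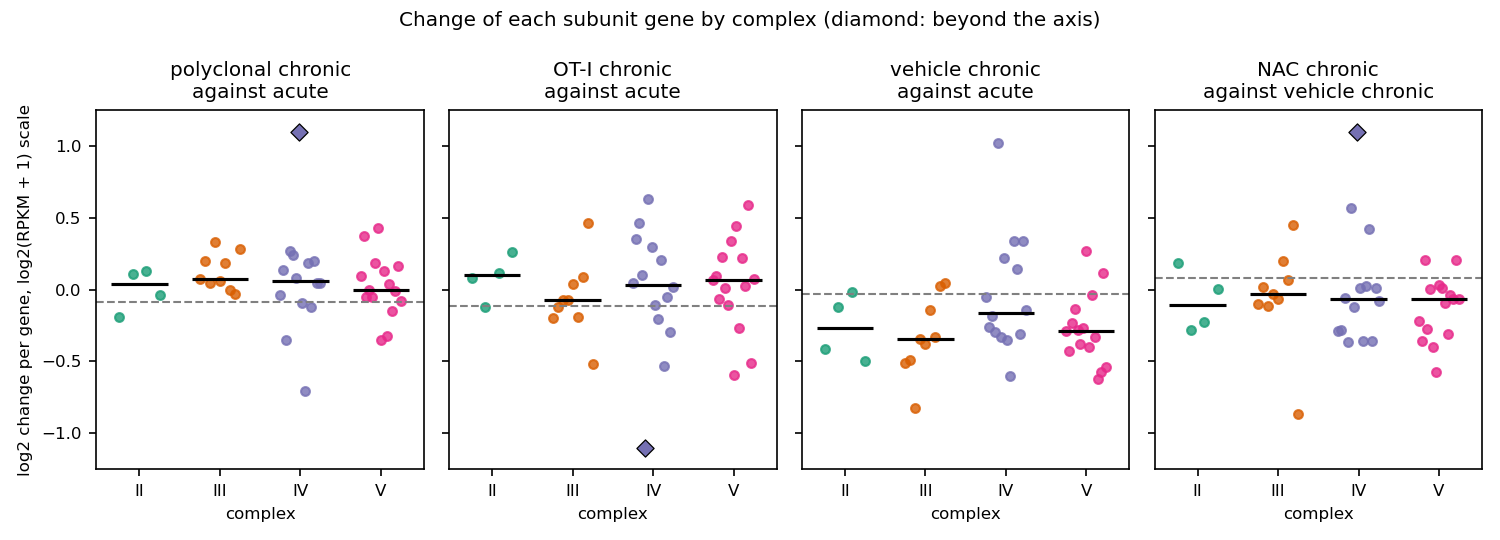
Log2 change of every gene counted in complexes II to V on the log2(RPKM + 1) scale (vertical axis) by complex (horizontal axis) in 4 comparisons. The black line is the complex's median, the dashed line the median of all 12630 genes tested, and diamonds are genes beyond the axis (Cox6b2 at 1.52 and 1.89, Cox6a2 at -3.95). In vehicle cells the medians of complexes II, III and V are -0.27, -0.34 and -0.29 and that of complex IV -0.16.

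Complex IV had calls in both directions in all 3 experiments, and its tissue-restricted isoforms had the largest log2 changes among them. Cox6a2, the heart and skeletal muscle form of subunit 6a, was near 0 in vehicle acute, at 0.811, 0.413 and 0.353 RPKM, and at 2.38, 1.99 and 1.89 in vehicle chronic libraries (log2 change 1.03 ± 0.24, adjusted p = 0.000819). In OT-I cells it was at 27.7, 35.04 and 25.4 RPKM in acute and 1.09, 0.782 and 0.991 in chronic libraries (log2 change -3.95 ± 0.24, adjusted p = 2.53e-11). OT-I acute was thus the only group whose 3 libraries were all above 5 RPKM, and its values did not overlap with those of any other group. Its widely expressed counterpart Cox6a1 was at 382 ± 71.7 RPKM (SD, n = 3) in OT-I acute and 404 ± 15 in OT-I chronic, and was not called there (log2 change 0.10). Cox6a1 fell in vehicle cells (log2 change -0.30 ± 0.11, adjusted p = 0.021, and 0.0632 with a common median and 0.116 by voom) and rose in polyclonal cells (log2 change 0.27 ± 0.11, adjusted p = 0.0322, and 0.0664 when fitted on those groups alone).

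Cox6b2, the testis form of subunit 6b, rose in polyclonal cells from 2.02, 2.12 and 1.13 to 5.72, 6.49 and 8.45 RPKM (log2 change 1.52 ± 0.14, adjusted p = 7.33e-09). Its ubiquitous counterpart Cox6b1 was not called there (log2 change 0.08). In vehicle cells Cox6b1 was at 368, 377 and 381 RPKM in acute and 300.2, 319 and 277 in chronic libraries, a fall without overlap (log2 change -0.33 ± 0.087, adjusted p = 0.0027), and Cox6b2 was not called (log2 change 0.22). In OT-I cells Cox6b1 rose from 189, 217 and 158 to 282, 274 and 313 RPKM (log2 change 0.63 ± 0.087, adjusted p = 3.64e-06), again without overlap, and Cox6b2 was not called (log2 change 0.30). Cox6b1 was the more abundant form in every group: even at the highest level of Cox6b2, in NAC chronic libraries, the means were 274 ± 4.35 against 25.95 ± 0.936 RPKM (SD, n = 3).

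Among the subunit 7 genes, Cox7a2, the widely expressed form of 7a, rose in vehicle cells from 168, 156 and 171 to 211, 214 and 201 RPKM (log2 change 0.34 ± 0.086, adjusted p = 0.00209) and in OT-I cells (log2 change 0.21 ± 0.086, adjusted p = 0.0485). The OT-I call was lost without the 3 libraries of raised low-gene signal (log2 change 0.06, adjusted p = 0.321) and when only those groups were fitted (0.181). Its muscle form Cox7a1 fell in polyclonal cells (log2 change -0.70 ± 0.26, adjusted p = 0.0238), from 4.69, 4.599 and 8.603 to 2.03, 5.65 and 2.53 RPKM. These 2 groups overlapped, and the call was lost when only those groups were fitted (adjusted p = 0.0799) and by voom (0.128). Cox7a2l, the related gene counted here by its symbol, fell in OT-I cells from 94.5, 97.1 and 72.5 to 56.99, 61.1 and 62.2 RPKM (log2 change -0.53 ± 0.081, adjusted p = 1.24e-05), without overlap. It was not called in vehicle or polyclonal cells, with log2 changes of 0.14 and -0.12. Cox7c rose in vehicle cells (log2 change 0.34 ± 0.14, adjusted p = 0.0407), a call lost without vehicle acute replicate 1 (adjusted p = 0.112), while Cox7b fell (log2 change -0.31 ± 0.079, adjusted p = 0.00217).

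The remaining complex IV genes gave smaller changes. Cox4i1, the regulatory subunit and the most abundant of the complex, was not called after chronic stimulation, with log2 changes of -0.05 in vehicle, -0.04 in polyclonal and 0.05 in OT-I cells. Cox8a was not called either (log2 changes -0.14, 0.04 and 0.02). Cox6c and Cox5a fell in vehicle cells (log2 change -0.35 ± 0.079, adjusted p = 0.000668 and log2 change -0.26 ± 0.062, adjusted p = 0.00123). Cox5a rose in OT-I cells (log2 change 0.36 ± 0.062, adjusted p = 6.1e-05) and was not called in polyclonal cells (log2 change 0.14 ± 0.062, adjusted p = 0.0601), where a fit with the replicate number as a block gave adjusted p = 0.0485. Cox5b, a zinc-binding subunit, fell in polyclonal cells from 17.6, 18.1 and 18.7 to 14.02, 13.2 and 14.7 RPKM (log2 change -0.35 ± 0.13, adjusted p = 0.0205) and rose in OT-I cells from 43.4, 36.8 and 65.1 to 64.5, 62.9 and 69.2 RPKM (log2 change 0.47 ± 0.13, adjusted p = 0.00366). The polyclonal call was lost by voom (log2 change -0.25, adjusted p = 0.481), and without polyclonal acute replicate 3 or polyclonal chronic replicate 2 (0.0578 and 0.0618). The polyclonal libraries did not overlap and the OT-I libraries did, since OT-I acute replicate 3 lay within the chronic range. The isoforms Cox4i2, Cox7b2, Cox8b and Cox8c are not analysed here.

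In complex V 11 of 15 genes fell in vehicle cells (73.3%, beside 77.8% in complex III). They included genes of the catalytic head, the central stalk, the peripheral stalk and the membrane part. In the head, Atp5b was at 755, 751 and 709.6 RPKM in acute and 551, 551 and 544 in chronic libraries (log2 change -0.43 ± 0.07, adjusted p = 2.13e-05), without overlap. The alpha subunit Atp5a1 of the head also fell, by -0.29 on the log2 scale. In the central stalk, the gamma and epsilon subunits Atp5c1 and Atp5e fell by -0.23 and -0.28, and the delta subunit Atp5d was not called (log2 change -0.14). The call of Atp5e was lost with a common median (adjusted p = 0.0911), and those of Atp5e and Atp5c1 by voom (0.157 and 0.114). In the peripheral stalk, Atp5o (the OSCP subunit) went from 235, 236 and 234 to 164, 166 and 155 RPKM (log2 change -0.54 ± 0.079, adjusted p = 6.12e-06), Atp5f1 and Atp5j fell by -0.38 and -0.33 on the log2 scale, and Atp5h was not called (log2 change -0.04).

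In the membrane part, Atp5j2 (subunit f) went from 435, 429.7 and 415 to 272, 294 and 264 RPKM (log2 change -0.62 ± 0.11, adjusted p = 3.86e-05) and Atp5k (subunit e) from 301, 307 and 275 to 204, 190.2 and 196 (log2 change -0.58 ± 0.089, adjusted p = 1.16e-05). Both groups of libraries were apart. Subunit c, which forms the rotating ring, is encoded by Atp5g1, Atp5g2 and Atp5g3, whose mature proteins are identical. Atp5g3 had the highest listed level of these, at 424 ± 14.5 RPKM (SD, n = 3) in vehicle acute against 19.1 ± 1.43 for Atp5g1 and 2.81 ± 1.24 for Atp5g2. The latter levels are uncertain, since 59.5% and 50.6% of those transcripts matched other genes, and none of that of Atp5g3 did. Atp5g3 and Atp5g1 fell (log2 change -0.40 ± 0.071, adjusted p = 5.39e-05 and log2 change -0.27 ± 0.087, adjusted p = 0.0114), and Atp5g2 and the subunit g gene Atp5l were not called (log2 changes 0.27 and 0.11).

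In polyclonal cells Atp5g1 and Atp5b rose instead. Atp5g1 was at 9.62, 10.99 and 10.1 RPKM in acute and 16.04, 14 and 12.6 in chronic libraries (log2 change 0.43 ± 0.087, adjusted p = 0.000207), and Atp5b at 524, 462 and 489 and 649.7, 571 and 695 RPKM (log2 change 0.37 ± 0.07, adjusted p = 8.77e-05), both without overlap. Atp5f1 rose (log2 change 0.19 ± 0.073, adjusted p = 0.0314) and Atp5h fell (log2 change -0.32 ± 0.11, adjusted p = 0.0117), while Atp5g2 and Atp5g3 were not called (log2 changes -0.35 and 0.13). The call of Atp5f1 was lost when only those groups were fitted (adjusted p = 0.0547) and that of Atp5h by voom (log2 change -0.23, adjusted p = 0.308). In OT-I cells Atp5k rose from 52.5, 53.1 and 39.2 to 68.5, 72.9 and 76.3 RPKM (log2 change 0.59 ± 0.089, adjusted p = 1.1e-05), and Atp5g3 from 275, 300.1 and 233 to 359.5, 363 and 372 (log2 change 0.44 ± 0.071, adjusted p = 2.04e-05). Both were without overlap, and the level of Atp5k in either OT-I group lay below that in every other group. Atp5g1 rose and Atp5g2 fell (log2 change 0.34 ± 0.087, adjusted p = 0.00251 and log2 change -0.59 ± 0.21, adjusted p = 0.0236), Atp5d and Atp5j rose by 0.23 and 0.22 on the log2 scale, and Atp5h fell (log2 change -0.27). By voom the calls of Atp5g2 (log2 change -0.84, adjusted p = 0.0648) and Atp5h (0.0951) were lost, that of Atp5h also with a common median (0.228). Without the 3 libraries of raised low-gene signal those of Atp5d and Atp5j were lost (0.18 and 0.119), and the log2 change of Atp5h was -0.43.

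The set-apart genes Atp5s and Atp5sl did not follow complex V. Atp5sl fell in polyclonal cells from 14.6, 16.8 and 14.3 to 9.64, 10.8 and 8.67 RPKM (log2 change -0.60 ± 0.071, adjusted p = 2.58e-07) and in OT-I cells (log2 change -0.40 ± 0.071, adjusted p = 7.88e-05), and was not called in vehicle cells (log2 change -0.05). Atp5s fell in OT-I cells from 9.4, 9.29 and 8.78 to 5.16, 5.1 and 5.98 RPKM (log2 change -0.67 ± 0.095, adjusted p = 5.78e-06) and was not called in the other 2 experiments (log2 changes 0.10 in polyclonal and -0.12 in vehicle).

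No member was called in the same direction in all 3 chronic against acute comparisons, against 16.2% of all genes. At an unadjusted p under 0.05 there was 1, and by voom on recovered reads 1; both were Cox7a2, which was higher. The difference between experiments was then tested itself. The vehicle effect minus the polyclonal effect was called for 24 of the 45 genes, 23 of them lower, against 52.4% of all genes called. Over all 12630 genes tested, 3165 were higher and 3449 lower in this difference. By complex, 7 of 9 genes of complex III, 9 of 15 of complex V, 5 of 14 of complex IV and 2 of 4 of complex II were lower in vehicle relative to polyclonal, and only Atp5sl was higher. The 7 genes called lower in vehicle and higher in polyclonal cells were Uqcrb, Uqcrc2, Cox6a1, Cox7b, Atp5b, Atp5f1 and Atp5g1, and for all of them this difference was called. For Atp5b it was log2 change -0.80 ± 0.098, adjusted p = 8.46e-07. The OT-I effect minus the polyclonal effect was called for 17 of the 45, 8 higher and 9 lower, against 55.8% of all genes (3365 higher and 3682 lower). It was called for 28 of the 45 without the 3 libraries of raised low-gene signal. Its most negative values were those of Cox6a2 (log2 change -4.20 ± 0.33, adjusted p = 1.39e-09) and Cox6b2 (log2 change -1.22 ± 0.2, adjusted p = 2.65e-05), and its highest that of Cox5b (log2 change 0.82 ± 0.18, adjusted p = 0.000631). The groups in these experiments differed also in the marker levels given above, whose part was not tested.

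N-acetylcysteine during chronic stimulation lowered more of the 45 genes than it raised, and 29 of the 45 were lower in NAC chronic than in vehicle acute cells. Against vehicle chronic, 9 of the 45 rose and 13 fell, beside 38.5% of all genes higher and 22.6% lower, with a median log2 change of -0.06 beside 0.08 over all genes. Bringing libraries to a common median moved the median of all genes from 0.08 to -0.02, and the 45 then had 5 higher and 17 lower with a median of -0.22. Complex V had 1 of 15 higher and 6 lower, complex IV 3 of 14 higher and 4 lower, complex III 2 of 9 higher and 1 lower, and complex II 1 of 4 higher and 2 lower; Atp5s and Atp5sl both rose. Against vehicle acute, 37 of the 45 were called, 8 higher and 29 lower, beside 66.3% of all genes called. Over all 12630 genes tested, 4587 were higher and 3781 lower. The median was -0.37 for the 45, beside 0.04 over all genes. Against vehicle acute the called genes furthest from 0 were Cox6b2 (log2 change 2.11 ± 0.14, adjusted p = 4.69e-11) and Cox6a2 (log2 change 1.59 ± 0.24, adjusted p = 5.2e-06) above it and Cox7a1 (log2 change -0.96 ± 0.26, adjusted p = 0.0028), Uqcr11 (log2 change -0.94 ± 0.17, adjusted p = 8.31e-05) and Atp5g1 (log2 change -0.84 ± 0.087, adjusted p = 3.96e-08) below it. Both comparisons use the NAC libraries and each shares its controls with the vehicle comparison. Proliferation markers summed to 423.3 to 431.7 RPKM with N-acetylcysteine, between the vehicle chronic and vehicle acute ranges. CD4 T cell markers, 4 of 4 higher, summed to 74.9 to 76.8 RPKM with N-acetylcysteine against 19.4 to 22.4 in vehicle chronic libraries. Myeloid markers, 2 of 4 higher, summed to 30.8 to 32.2 against 8.94 to 9.64 RPKM. Nearly all of this sum was the integrin genes Itgax, at a mean of 26.4 against 7.52, and Itgam, at 4.93 against 1.79. Mpeg1 and Adgre1 of the same list were near 0, at 0.051 and 0.021 against 0.018 and 0 RPKM. The part of these markers in the result was not tested.

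In complex V, 6 of the 7 genes called between N-acetylcysteine and vehicle chronic cells were lower with N-acetylcysteine. Atp5b was at 435, 428 and 420.1 RPKM, below all vehicle chronic and vehicle acute libraries given above (log2 change -0.36 ± 0.07, adjusted p = 0.000157 against vehicle chronic and log2 change -0.79 ± 0.07, adjusted p = 3.91e-09 against vehicle acute). Atp5g1 went from 15.96, 14.8 and 16.2 RPKM in vehicle chronic to 10.02, 10.7 and 9.87 (log2 change -0.57 ± 0.087, adjusted p = 1.01e-05), and Atp5f1 from 78.8, 78.96 and 76.4 to 56.9, 60.8 and 58.8 (log2 change -0.40 ± 0.073, adjusted p = 8.16e-05). The b subunit Atp5f1 and the ring gene Atp5g1 thus had their lowest vehicle-experiment values with N-acetylcysteine. Atp5j, Atp5d and Atp5a1 fell too, with log2 changes of -0.31, -0.27 and -0.22, and the gamma subunit Atp5c1 rose (log2 change 0.21 ± 0.066, adjusted p = 0.00979), a call lost with a common median (log2 change 0.04). Atp5g2 and Atp5g3 were not called (log2 changes 0.04 and 0.01).

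In complex III, Uqcrq and Uqcrh moved apart. Uqcrq was at 103, 95.2 and 96.7 RPKM in vehicle chronic and 55.1, 54.2 and 51.6 in NAC chronic libraries (log2 change -0.86 ± 0.11, adjusted p = 5.67e-07), and at 95.7, 96.9 and 92.98 in vehicle acute. Uqcrh was at 255, 271 and 257, 358, 348 and 363 and 244, 263 and 259.9 RPKM in the same order (log2 change 0.45 ± 0.085, adjusted p = 0.000127 against vehicle chronic). For both genes the NAC libraries lay outside the range of all 6 vehicle libraries, in which neither had been called. Uqcrc2 rose (log2 change 0.20 ± 0.055, adjusted p = 0.00338, and 0.78 with a common median), and Cyc1 and Uqcr11 were not called (log2 changes -0.10 and -0.11); against vehicle acute they were lower, with log2 changes of -0.61 and -0.94. The mean of Uqcrh went from 260.8 to 356.4 RPKM, a larger difference than that of the summed complex.

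In complex IV, Cox6b2 was the member with the highest log2 change. It was at 7.01, 4.99 and 7.02 RPKM in vehicle chronic and 25.1, 25.9 and 26.9 in NAC chronic libraries (log2 change 1.89 ± 0.14, adjusted p = 4.03e-10), above every library of the other 6 groups. Cox7a2l went from 158, 157 and 156 to 205, 214 and 214 RPKM (log2 change 0.43 ± 0.081, adjusted p = 0.000128), also above every other library. Cox6a2 had 4.53, 2.95 and 3.35 RPKM (log2 change 0.57 ± 0.24, adjusted p = 0.0432), but its call was lost with a pseudocount of 0.1, with a common median and by voom. Cox6a1, Cox7b, Cox4i1 and Cox5a fell, with log2 changes of -0.37, -0.36, -0.29 and -0.28, and Cox6b1, Cox7a1, Cox7a2 and Cox8a were not called (log2 changes -0.12, -0.36, 0.03 and -0.08). In complex II, Sdhb was at 163, 161 and 156 RPKM in vehicle chronic and 131, 135 and 129 with N-acetylcysteine (log2 change -0.28 ± 0.071, adjusted p = 0.00197). Sdhc fell as well (log2 change -0.22 ± 0.055, adjusted p = 0.00155), Sdhd was not called (log2 change 0.00), and Sdha rose (log2 change 0.19 ± 0.044, adjusted p = 0.000903), a call lost with a common median (log2 change 0.02, adjusted p = 0.873). Atp5s went from 3.97, 3.61 and 2.997 to 7.56, 6.54 and 6.73 RPKM (log2 change 0.82 ± 0.095, adjusted p = 3.17e-07) and Atp5sl from 12.9, 12.6 and 11.99 to 19.98, 20.7 and 20.3 (log2 change 0.66 ± 0.071, adjusted p = 9.05e-08), both without overlap.

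**Figure D4:**
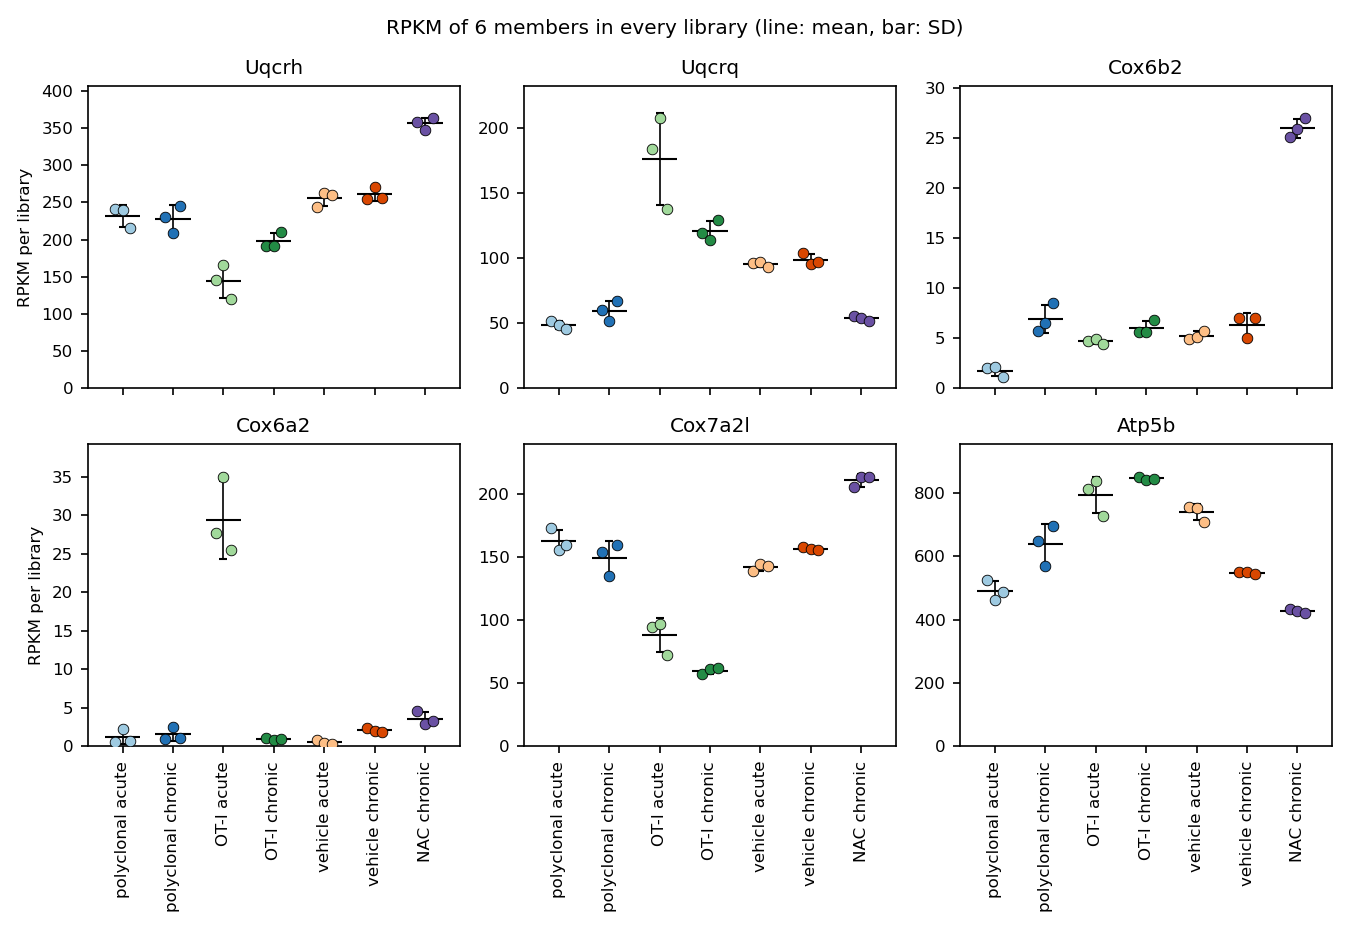
RPKM (vertical axes, from 0) of Uqcrh, Uqcrq, Cox6b2, Cox6a2, Cox7a2l and Atp5b in each library by group; points are libraries, lines means and bars SDs (n = 3). Cox6b2 is at 25.1 to 26.9 RPKM in NAC chronic and at most 8.45 elsewhere, Cox6a2 at 25.4 to 35.04 in OT-I acute and at most 4.53 elsewhere.

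Genes that assemble or regulate the complexes were counted beside the shares of all genes given above (34.4%, 35.5% and 36.2% lower and 24.5%, 28.6% and 22.4% higher in vehicle, polyclonal and OT-I cells, and 22.6% lower and 38.5% higher with N-acetylcysteine), and nothing is read from counts this small. Among 21 complex IV assembly genes, 3 rose and 8 fell in vehicle cells, 4 rose and 8 fell in polyclonal cells, and 5 rose and 9 fell in OT-I cells. The copper chaperone Sco1 rose in polyclonal cells from a mean of 4.31 to 15.7 RPKM (log2 change 1.66 ± 0.081, adjusted p = 2.98e-13), and Cmc2 fell in vehicle cells from 24.7 to 11.5 RPKM (log2 change -1.05 ± 0.11, adjusted p = 5.05e-08). Cmc1 rose with N-acetylcysteine (log2 change 0.72 ± 0.087, adjusted p = 5.82e-07) and Sco1 fell (log2 change -0.66 ± 0.081, adjusted p = 5.62e-07). Of 7 complex III assembly genes, 3 rose and 1 fell in vehicle cells; Hccs, which attaches haem to cytochromes c and c1, was higher in all 3 experiments, with log2 changes of 0.55 in vehicle, 0.77 in polyclonal and 0.60 in OT-I cells. With N-acetylcysteine 1 of the 7 rose and 3 fell, among them Uqcc2 (log2 change -0.55 ± 0.11, adjusted p = 0.000148), and Lyrm7 rose (log2 change 0.55 ± 0.14, adjusted p = 0.00223). Of 4 complex II assembly genes, Sdhaf3 fell in OT-I cells (log2 change -0.68 ± 0.09, adjusted p = 2.48e-06) and rose in vehicle cells (log2 change 0.30 ± 0.09, adjusted p = 0.00776), and Sdhaf1 rose with N-acetylcysteine (log2 change 0.49 ± 0.11, adjusted p = 0.000711).

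Of 6 genes of complex V assembly, accessory subunits and its inhibitor, 3 fell and none rose in vehicle cells. They included Atpif1, the inhibitor of ATP hydrolysis by the enzyme, which went from a mean of 71.5 to 51.2 RPKM (log2 change -0.47 ± 0.086, adjusted p = 8.34e-05) and rose in polyclonal cells (log2 change 0.57 ± 0.086, adjusted p = 7.58e-06). The accessory subunit gene 2010107E04Rik fell in vehicle (log2 change -0.79 ± 0.096, adjusted p = 4.67e-07) and polyclonal cells (log2 change -0.53 ± 0.096, adjusted p = 5.86e-05), and it rose with N-acetylcysteine together with Atpaf1 (log2 changes 0.35 and 0.43), as 4 of the 6 did (1 with a common median). Of 13 regulators of nuclear respiratory genes, 4 rose and 6 fell in vehicle cells, including Nfe2l2, the antioxidant response factor (log2 change -1.28 ± 0.068, adjusted p = 1.59e-12), and Tfam, which maintains mitochondrial DNA (log2 change -0.70 ± 0.059, adjusted p = 2.38e-09). In polyclonal cells 5 rose and 5 fell, led by Hif1a (log2 change 1.18 ± 0.05, adjusted p = 2.5e-14) and Myc (log2 change 1.01 ± 0.054, adjusted p = 1.12e-12). In OT-I cells 3 rose and 8 fell, with the coactivators Ppargc1a lower (log2 change -0.85 ± 0.16, adjusted p = 0.000117) and Pprc1 higher (log2 change 0.85 ± 0.074, adjusted p = 6.53e-09). With N-acetylcysteine 6 rose and 3 fell, of which Pprc1 and Esrra had the lowest values (log2 change -0.93 ± 0.074, adjusted p = 1.13e-09 and log2 change -0.62 ± 0.084, adjusted p = 2.05e-06), and with a common median 1 rose and 3 fell.

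Near-identical gene copies limit some members. At least 50% of the annotated transcript matched another gene's transcript at 97% identity or more for 8 of the 45: Uqcrb, Cox7c, Atp5f1, Atp5g1, Atp5g2, Atp5h, Atp5l and Atp5o. Their median level was 30 RPKM against 134 for the other 37, and the sources used here do not give how the counting treated reads shared with copies, so levels of these genes are uncertain. In vehicle cells 4 of the 8 fell and 1 rose, and of the other 37 genes 21 fell and 2 rose. Among those 37 the matching share was 42% for Cox5a, 38.4% for Uqcr11, 33.7% for Cycs and at most 26.7% for each of the rest.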

How the data were processed

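RNA of 21 libraries was made into poly(A)+ libraries with a NEBNext Ultra kit after Trizol extraction, per the labels' protocols. The authors deposited 1 table of RPKM values, 1 column per library, matched to samples by name. The submitters' processing notes list mm9, HTSeq, edgeR and bcl2fastq 2.17 without a role for any. The sources used here do not give the aligner, annotation, strand setting or treatment of shared reads, so reads of overlapping or antisense genes may be mixed. RPKM of a gene depends on the other genes of its library, so a shift in a few abundant genes moves all values. The members and gene lists were chosen with earlier results of these data known.

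Genes with at least 1 RPKM in 3 or more libraries (12630 of 13202) were tested with limma 3.58.1 in R 4.3.3 (lmFit, eBayes with trend) on log2(RPKM + 1), all 7 groups in one fit with 14 residual degrees of freedom, two-sided, with Benjamini-Hochberg adjustment over all genes tested; called means an adjusted p under 0.05. Differences between experiments are contrasts of that fit. RPKM values were converted back to whole reads (100% of genes, to within 0.001 reads), which were used for depth and for voom with trimmed mean scaling as an alternative, which called 4068 genes higher and 3431 lower in the polyclonal, 3886 and 4081 in the OT-I, 3749 and 3786 in the vehicle and 3709 and 3973 in the N-acetylcysteine against vehicle chronic comparison. Scripts were tested on simulated data. Members named are those of complex II, Cyc1 and Cycs in each comparison, up to 4 called genes per complex with the largest log2 change, isoforms of one subunit, the 3 most abundant of each complex, and up to 2 called genes of each other list; Atp5d, Atp5j, Cox7a2l, Cox7b and others beyond this rule are named so that every call is accounted for.

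Replicate libraries were compared pairwise: chi-square per gene was 1.52 to 54.6 over the 21 pairs, above sampling noise in each, and no 2 columns were identical. Deviations of same-numbered acute and chronic polyclonal libraries correlated over genes at r = 0.446, 0.629 and 0.168. Acute replicate 1 with chronic replicate 3 had r = 0.569, so these values do not show that the numbers mark pairs. Acute replicate 2 had r = -0.446 and -0.566 with chronic replicates 1 and 3. Replicate 2 of both groups was a library of raised low-gene signal. Same-numbered OT-I (0.052, -0.167 and -0.034) and vehicle libraries (0.004, 0.076 and 0.077) did not deviate together. The fit with the replicate number as a block is an alternative. Other alternatives were another pseudocount (0.1), other filters (none, or 5 RPKM), fitting the compared groups alone, bringing libraries to a common median, and leaving out each library or the 3 with raised low-gene signal. Near-identical copies were sought with blastn 2.17.0 in GENCODE mouse transcripts. Promoters are those of RefSeq on GRCm38.p6, not the build mm9, and 36 of 45 symbols matched.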

Additional observations from a re-analysis of the deposited data

Results flagged for a closer look

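The difference between the vehicle and the polyclonal effect of chronic stimulation was called for 24 of the 45 genes (53.3%), beside 52.4% of all genes. Of the 24, 23 were lower and 1 higher, beside 3449 lower and 3165 higher over all genes tested. For 7 of the 24 the gene was called lower in vehicle and higher in polyclonal cells, and the tested difference on the log2 scale was -0.68 for Uqcrb, -0.33 for Uqcrc2, -0.56 for Cox6a1, -0.51 for Cox7b, -0.80 for Atp5b, -0.57 for Atp5f1 and -0.70 for Atp5g1. The vehicle calls of Uqcrc2 and Cox6a1 were lost with a common median and by voom. The polyclonal calls of Cox6a1 and Atp5f1 were lost when only those groups were fitted, and that of Uqcrc2 without polyclonal chronic replicate 3. The difference between the OT-I and the polyclonal effect was called for 17 genes (37.8%), beside 55.8% of all genes. In 3 of them the gene was called in both experiments in opposite directions, with differences of -0.37 for Uqcrc2 and -0.80 for Uqcrq, which rose in polyclonal and fell in OT-I cells, and 0.82 for Cox5b, which did the reverse. Of these calls, that of Uqcrc2 in OT-I cells was lost with a common median (adjusted p = 0.267) and by voom (0.332), and that of Cox5b in polyclonal cells by voom (0.481). The summed level of B cell markers was higher in polyclonal chronic libraries and that of melanocyte markers in OT-I libraries, as given in the report, and their part in these differences was not tested.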

How the results depend on the processing

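No call of a single gene turned to the opposite direction under an alternative. The median log2 change of the 45 genes in OT-I cells did turn, from 0.02 to -0.16, without the 3 libraries of raised low-gene signal. The number of genes higher in polyclonal chronic cells was 17 without the 3 libraries of raised low-gene signal, against 10. The number lower there was 1 by voom, against 5. The number lower in OT-I chronic cells was 5 by voom and 21 without those 3 libraries, against 9. The number higher with N-acetylcysteine against vehicle chronic was 5 with a common median and 5 by voom, against 9, and the OT-I minus polyclonal difference was called for 28 genes without those 3 libraries, against 17. By voom 1 gene was called the same way in all 3 experiments, against 0. The causes of these moves were not tested.

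Leaving out each library in turn, the counts ranged from 4 to 14 (polyclonal higher), 3 to 6 (polyclonal lower), 8 to 14 (OT-I higher), 6 to 18 (OT-I lower), 2 to 4 (vehicle higher), 21 to 27 (vehicle lower), 8 to 9 and 12 to 13 (N-acetylcysteine against vehicle chronic, higher and lower), 35 to 39 (N-acetylcysteine against vehicle acute), 14 to 23 (OT-I minus polyclonal), 24 to 30 (vehicle minus polyclonal) and 0 to 1 (all 3 experiments, 1 without polyclonal chronic replicate 2 or OT-I acute replicate 2). With the replicate number as a block, the polyclonal counts were 11 higher and 5 lower. Of 315 single-gene results, 3 lost a call and 11 gained one. The losses were Cox7a2 in OT-I cells (adjusted p = 0.0582) and Atp5e in vehicle cells and with N-acetylcysteine against vehicle acute (0.0658 and 0.0632). Cox5a was the one gain in the polyclonal comparison, where the block changed no other call. The correlations do not show that numbers pair the polyclonal libraries, and the other libraries share only a number. Of the same 315 results, 15 lost and 12 gained a call with a common median and 21 and 10 by voom. Depth limits Cycs, Atp5g2, Cox7a1 and Cox6a2, which had as few as 23, 15, 8 and 4 reads in a library.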
